A study of Mus musculus with 4 samples.

Results

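A set of 10 inflammatory genes was followed in H460, a long-established cell line from a human lung carcinoma, treated for 4 h with farnesol (FOH), an isoprenoid alcohol, at 250 µM or with its vehicle, dimethyl sulphoxide (DMSO). The 10 genes were the cytokines IL1A, IL1B, IL6, IL11, LIF, TNF and CSF2, the CC chemokines CCL2 and CCL20, and the long pentraxin PTX3, out of 18760 genes with a symbol on the array. They were taken by the gene name that the array files give each probe, which found 14 probes among 41000. Per the labels, the experiment was done in duplicate, and the farnesol RNA of each experiment was hybridised against its matched vehicle RNA on a dye-swapped pair of arrays. There were thus 4 arrays but 2 replicates, and this small number limits how precise any mean below can be.

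Interleukin-1α and interleukin-1β, encoded by IL1A and IL1B, are alarm cytokines that signal through a shared receptor, and TNF signals through its own pair of receptors. In epithelial cells both pathways activate NF-kappaB, a transcription factor that is known to drive IL6, CCL20, CSF2 and PTX3 among other genes. IL-6, IL-11 and LIF form a family whose receptors share the signalling chain gp130. CCL20 attracts lymphocytes and dendritic cells that carry CCR6, CCL2 attracts monocytes that carry CCR2, GM-CSF from CSF2 supports myeloid cells, and PTX3 is a secreted pattern-recognition protein of the innate immune response.

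After farnesol, PTX3, CCL20 and IL1A RNA was between 7.31-fold and 11.1-fold higher as a mean of both replicates, and at least 2-fold higher in each of them. These sizes rest on an offset added to all intensities, which shrinks the ratios of dim probes: without it the means were 24.7-fold for IL1A, 17.8-fold for CCL20 and 13.4-fold for PTX3, so that the order of the 3 genes turned as well. IL1B was 2.82-fold higher, and a probe made to the RefSeq mRNA of IL6 was 7.96-fold higher, although another IL6 probe with a brighter signal was 1.21-fold higher. The brighter one is assigned to a cDNA clone and stands for IL6 in the counts and medians over the members, and whether it measures IL6 mRNA was not tested. IL11 and LIF were higher on all 4 arrays by smaller amounts, while TNF depended on the probe. CSF2 and CCL2 stayed within 1.2-fold of the vehicle in both replicates. For CSF2, which was higher on all 4 arrays but dim, this rests on the offset. Without it CSF2 was 1.54-fold higher in replicate 1 and 1.23-fold in replicate 2. At an adjusted p under 0.05 limma's test called 0 of 10 members and 0.0105% of the 28594 features tested higher. At an unadjusted p under 0.05 the counts were 4 of 10 members (IL1A, IL1B, CCL20 and PTX3) and 14.5% of features. Each alternative fit with 1 value per replicate also called 0 members. A fit that kept the 4 arrays apart, with the replicate as a random block, called those 4 members and 2894 of the 28594 features. It counts dye-swapped arrays of the same RNA as partly separate values, so its p-values are not those of 4 replicates.

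The log2 ratio of farnesol over vehicle is positive where the RNA was more abundant after farnesol, and a value of 1 is a 2-fold difference. By size, 3 of 10 members exceeded 2-fold in each replicate and were higher on all 4 arrays, against 0.657% of features. No member was lower by that rule, against 0.238% of features. Among single probes, 4 of the 13 tested member probes met it, against 0.635% of 37342 tested probes. With ratios centred on the median in place of loess, the rule found 155 features higher and 136 lower, against 188 and 68 with loess, and the member count stayed at 3. On all 4 arrays 7 of 10 members were higher, against 20.9% of features. The members were chosen with earlier results of these data known. Their shares, here and above, therefore describe the set and are no independent test of it. The median log2 ratio of the 10 members was 0.53 (0.85 in replicate 1 and 0.37 in replicate 2), against 0.01 over all features.

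**Figure D1:**
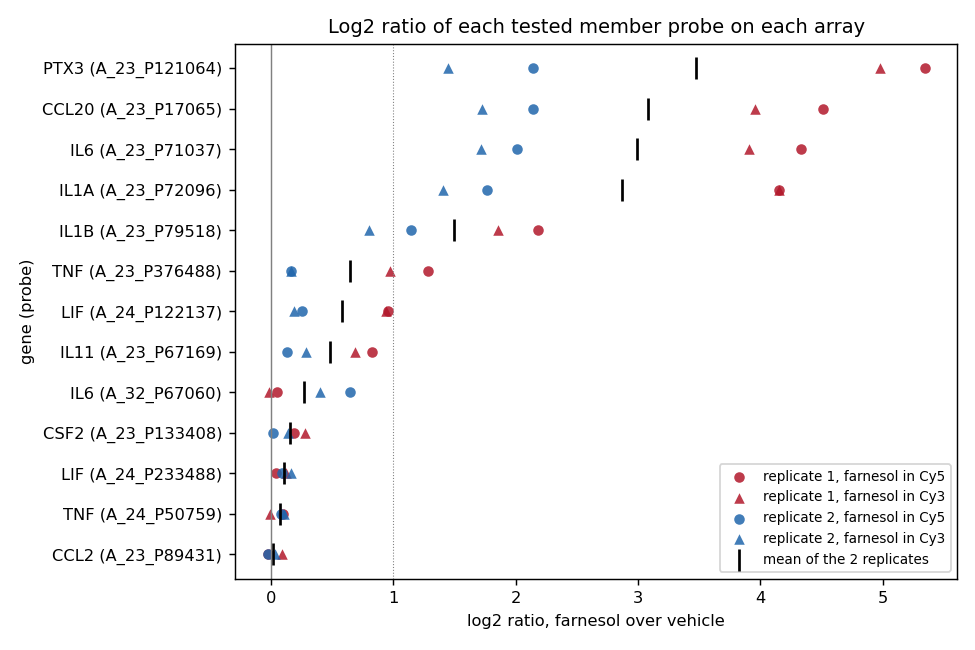
Each symbol is the log2 ratio of farnesol over vehicle of 1 tested member probe on 1 array, with replicate 1 in red, replicate 2 in blue, circles for farnesol in Cy5 and triangles for farnesol in Cy3, and the black tick is the mean of the 2 replicates. The red symbols of PTX3, CCL20, IL1A and the upper IL6 probe lie near or above 4 and the blue ones between 1.40 and 2.14, while CCL2 lies at 0; the dotted line marks a 2-fold difference.

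PTX3 had the largest mean difference of the members with the offset of 50, and came after IL1A and CCL20 without it and on the scale of the scanner software's processed ratio. Its log2 ratios were 5.34 and 4.97 on the replicate 1 arrays and 2.14 and 1.45 on the replicate 2 arrays, with farnesol in Cy5 given first and in Cy3 second here and for all members. Its normalized intensity, an arbitrary brightness unit that holds an offset of 50, lay between 254 and 393 in the vehicle channels and between 1070 and 11787 in the farnesol channels. The channels did not overlap, and the farnesol channels of replicate 1 were far brighter than those of replicate 2, at 11787 and 10380 against 1120 and 1070, while the vehicle channels of the replicates overlapped. Its mean log2 ratio was 3.47 ± 2.38 (SD, n = 2), with an adjusted p of 0.328 in limma's test. PTX3 held rank 29 by mean ratio among 17871 named genes, rank 14 in replicate 1 and rank 81 in replicate 2.

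CCL20 came second by size on all of these scales. It read 4.51 and 3.95 on the log2 ratio scale in replicate 1 and 2.14 and 1.72 in replicate 2. The vehicle channels lay between 78.5 and 88.8, offset included, and the farnesol channels between 293 and 1885. All farnesol channels thus lay above all vehicle channels. On this scale the spread came from the farnesol side, where replicate 1 was the brighter. The ratios corresponded to 18.8-fold in replicate 1 and 3.82-fold in replicate 2, a mean log2 ratio of 3.08 ± 1.63 (SD, n = 2) with an adjusted p of 0.268, and to rank 39. The vehicle channels are dim, so the offset in them also narrows their spread on the log2 scale. Without the offset the folds of CCL20 were 40.0 in replicate 1 and 7.95 in replicate 2. CCL2, the other chemokine of the set, had log2 ratios of -0.03 and 0.09 in replicate 1 and -0.03 and 0.03 in replicate 2. Its farnesol channels, at 125 to 210, overlapped its vehicle channels, at 128 to 205. The mean log2 ratio of CCL2 was 0.02 ± 0.02 (SD, n = 2; adjusted p 0.909), and its sign turned to -0.03 with median centring and with the farnesol-in-Cy5 arrays alone, so CCL2 has no direction here.

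Both interleukin-1 genes were higher on all arrays. IL1A had log2 ratios of 4.15 and 4.15 in replicate 1 and of 1.77 and 1.40 in replicate 2. Its vehicle channels, at 55.7 to 80.5, were close to the negative control spots, whose median intensity before the scaling between channels was 53.1 to 56.8, and on 1 array the vehicle channel was not well above background. The farnesol channels, at 171 to 1434, were well above background on 4 arrays. IL1A had a mean log2 ratio of 2.87 ± 1.81 (SD, n = 2), 17.8-fold in replicate 1 and 3.0-fold in replicate 2, with an adjusted p of 0.307 and rank 46. Without the offset the mean log2 ratio of IL1A was 4.63, with 45.8-fold in replicate 1 and 13.3-fold in replicate 2. The scanner software's own processed ratio gave 5.08, the largest mean of the members on that scale.

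IL1B had log2 ratios of 2.19 and 1.85 in replicate 1 and of 1.15 and 0.80 in replicate 2. Its vehicle channels lay between 157 and 221 and its farnesol channels between 347 and 914, with no overlap. The replicates gave 4.06-fold and 1.96-fold, so IL1B fell just short of the 2-fold rule through replicate 2. Without the offset it met the rule, at 4.97-fold and 2.47-fold. The mean log2 ratio was 1.50 ± 0.74 (SD, n = 2; adjusted p 0.258), and IL1B held rank 145.

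**Figure D2:**
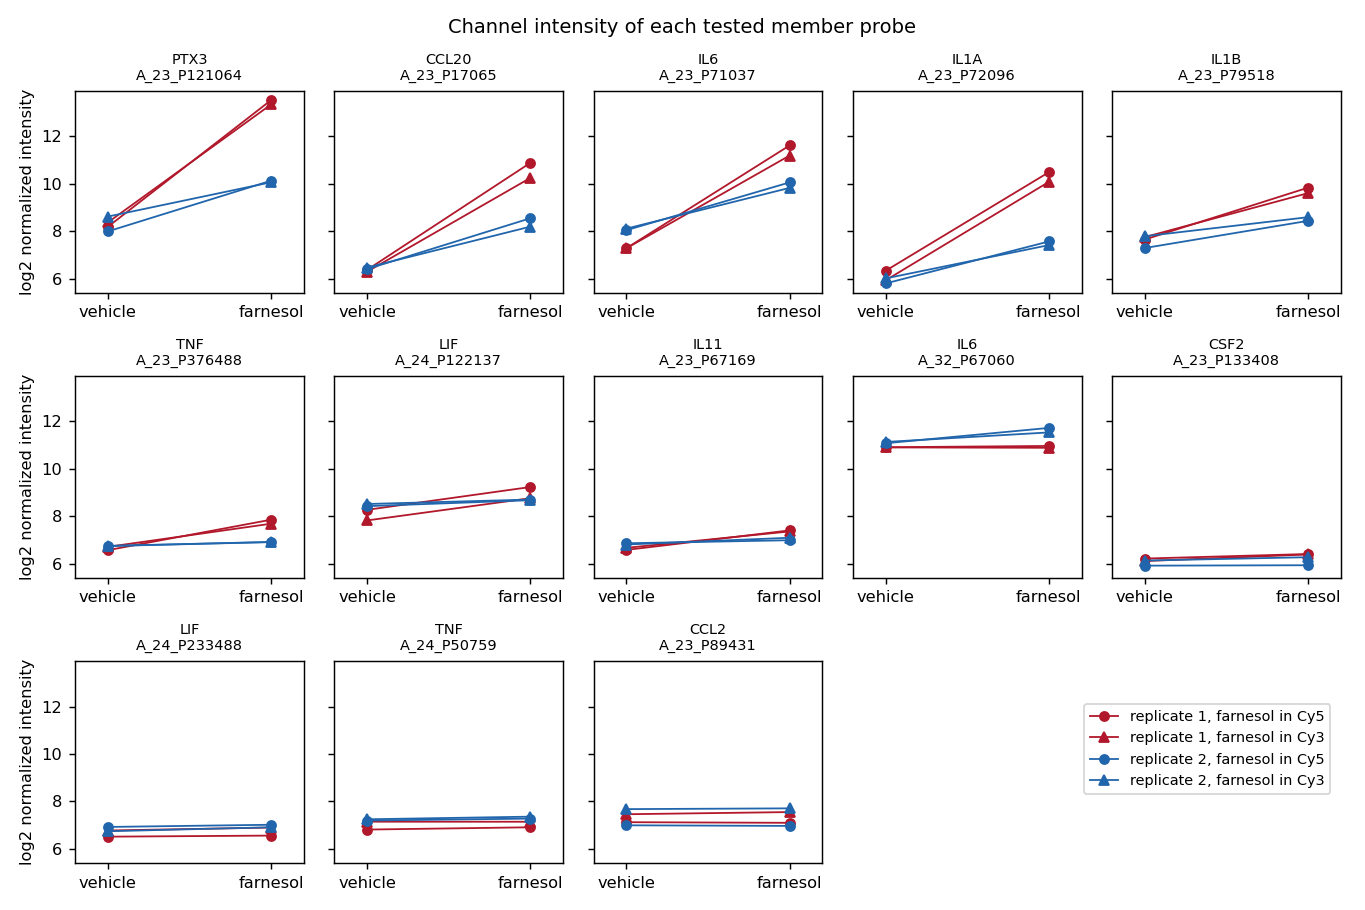
Each panel shows 1 tested member probe, with the log2 normalized intensity of its vehicle and farnesol channels joined by a line for each array (red, replicate 1; blue, replicate 2; circles, farnesol in Cy5; triangles, farnesol in Cy3). In the panels of PTX3, CCL20, IL1A and IL1B the vehicle points lie close together and the red farnesol points lie above the blue ones; intensities of different probes are not comparable.

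IL6 was measured by 3 probes that did not give the same picture. The probe assigned to the RefSeq mRNA NM_000600 (A_23_P71037) had log2 ratios of 4.33 and 3.91 in replicate 1 and of 2.01 and 1.72 in replicate 2. Its vehicle channels lay between 155 and 276 and its farnesol channels between 908 and 3134, and all farnesol channels were above all vehicle channels. The vehicle channels of replicate 2 were the brighter there, at 264 and 276 against 156 and 155. The folds were 17.4 in replicate 1 and 3.65 in replicate 2, with a mean log2 ratio of 2.99 ± 1.59 (SD, n = 2) and an adjusted p of 0.259 when every probe was tested as a feature of its own.

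The brightest IL6 probe (A_32_P67060), which stands for the gene by the rule used for all genes, is assigned to the cDNA clone BC027978. It read 0.05 and -0.02 in replicate 1 and 0.65 and 0.40 in replicate 2 on the log2 ratio scale. Its channels, at 1918 to 2247 with vehicle and 1896 to 3388 with farnesol, overlapped. The mean log2 ratio was 0.27 ± 0.36 (SD, n = 2; adjusted p 0.545), so that replicate 2 was the larger, against the order in every other member probe with a mean log2 ratio above 0.2. Other features also lay near 0 in replicate 1 but not in replicate 2, in both directions: 679 features, 2.37% of those tested, lay within 0.2 of 0 in replicate 1 and at 0.5 or more in replicate 2. A further 605 lay within 0.2 of 0 in replicate 1 and at -0.5 or lower in replicate 2. The median vehicle intensity was 1685 for the former and 565 for the latter, against 178 over all features.

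The third IL6 probe (A_23_P305818), also assigned to BC027978, was well above background on 1 of 4 arrays and was not tested. In the files' annotation the BC027978 probes share 3 accessions with each other and 0 with the NM_000600 probe. The gap between the IL6 probes, 2.72 on the log2 ratio scale, was the tenth largest of 6571 genes with more than 1 tested probe, and 0.152% of these genes had a gap of that size or more. The median gap was 0.12. Where a RefSeq mRNA probe stands for each gene that has one, an alternative chosen after these values were seen, IL6 held rank 42, 4 members met the 2-fold rule, and the members' median log2 ratio was 1.04.

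Among the other gp130 cytokines, IL11 had log2 ratios of 0.82 and 0.69 in replicate 1 and of 0.13 and 0.28 in replicate 2. Its vehicle channels lay at 96.1 to 117 and its farnesol channels at 128 to 170. The channels did not overlap, but the mean difference was small, at 0.48 ± 0.39 (SD, n = 2), or 1.40-fold, with an adjusted p of 0.403. On the scanner software's scale it was 0.84, with 2.45-fold in replicate 1 and 1.30-fold in replicate 2.

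LIF had log2 ratios of 0.96 and 0.94 in replicate 1 and of 0.25 and 0.19 in replicate 2 with its brighter probe (A_24_P122137). The vehicle channels, at 227 to 367, lay below the farnesol channels, at 410 to 603. On average LIF differed by a log2 ratio of 0.58 ± 0.52 (SD, n = 2), or 1.50-fold, with an adjusted p of 0.428. The dimmer LIF probe (A_24_P233488) had a mean log2 ratio of 0.11 ± 0.03 (SD, n = 2) and overlapping channels, although both are assigned to the same mRNA. The gap of 0.48 between them was reached by 10.6% of genes with more than 1 tested probe.

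TNF was also split between its probes. The brighter (A_24_P50759) read 0.10 and -0.00 in replicate 1 and 0.08 and 0.11 in replicate 2 on the log2 ratio scale, with overlapping channels and a mean of 0.07 ± 0.03 (SD, n = 2; adjusted p 0.634). The other (A_23_P376488) read 1.28 and 0.98 in replicate 1 and 0.17 and 0.17 in replicate 2. Its vehicle channels, at 95.3 to 108, lay below its farnesol channels, at 121 to 232, and the difference was 2.19-fold in replicate 1 but 1.12-fold in replicate 2. The first TNF probe lay at 113 to 152 with vehicle and 121 to 164 with farnesol, so both were dim with vehicle. In the farnesol channels of replicate 1 the second TNF probe was the brighter, at 232 and 207 against 121 and 142. The TNF probes are assigned to the same mRNA, and their gap of 0.58 was reached by 6.85% of genes with more than 1 tested probe. Without the offset the second TNF probe had 3.28-fold in replicate 1 and 1.25-fold in replicate 2.

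CSF2 was close to the detection limit. Its log2 ratios were 0.19 and 0.28 in replicate 1 and 0.02 and 0.14 in replicate 2, and on the farnesol-in-Cy5 array of replicate 2 neither channel was well above background. The channels overlapped, at 60.7 to 74.7 with vehicle and 61.4 to 85.2 with farnesol. Its mean log2 ratio was 0.16 ± 0.11 (SD, n = 2; adjusted p 0.480), and 0.46 without the offset, with 1.54-fold in replicate 1 and 1.23-fold in replicate 2.

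**Figure D3:**
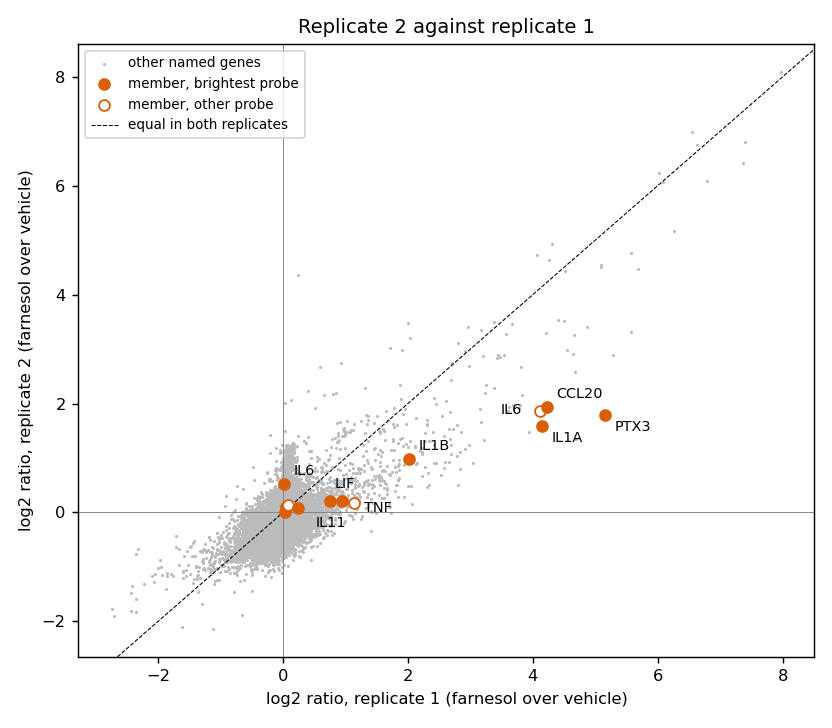
Each grey point is a named gene, with its log2 ratio of farnesol over vehicle in replicate 1 on the horizontal axis and in replicate 2 on the vertical axis; filled orange points are the members by their brightest probe, open ones their other tested probes, and the dashed line marks equal ratios. PTX3, CCL20, IL1A, IL1B and the higher IL6 probe lie to the right of the line, with 5.16 against 1.79 for PTX3, while the brightest IL6 probe lies in a narrow grey column near 0 in replicate 1.

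The members with large differences all had the larger ratio in replicate 1. The log2 ratio of PTX3 was larger by 3.37 in replicate 1, that of IL1A by 2.57, that of CCL20 by 2.30, that of the NM_000600 probe of IL6 by 2.25 and that of IL1B by 1.05. A larger ratio in replicate 1 was also found in 141 of the 188 features that were at least 2-fold higher, or 75.0%. Dye exchange moved the members less: the arrays of a pair differed by 0.56 at most in replicate 1, for CCL20, and by 0.69 at most in replicate 2, for PTX3. With replicate 1 left out 3 members exceeded 2-fold, and with replicate 2 left out 4 were, IL1B being the fourth. No member spot was saturated.

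The genes nearest to each large member over the 4 arrays were named by the root mean square distance of their log2 ratios, as a description. Each gene entered by its brightest probe only, so the NM_000600 probe of IL6 was not among the candidates. The log2 ratios of that probe, at 4.33, 3.91, 2.01 and 1.72, lay close to those of CCL20, at 4.51, 3.95, 2.14 and 1.72. Nearest to IL1A were EFNA1, which encodes an ephrin ligand, at a distance of 0.18 (3.94 in replicate 1, 1.47 in replicate 2), and CCL20 at 0.32. Nearest to CCL20 were IL1A and TNFAIP3, which encodes the NF-kappaB inhibitor A20, at 0.34 (3.77 and 1.92). Nearest to PTX3 were AREG, which encodes the growth factor amphiregulin, at 0.48 (4.69 and 1.36), and FLJ22595 at 0.66 (4.68 and 2.59).

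**Figure D4:**
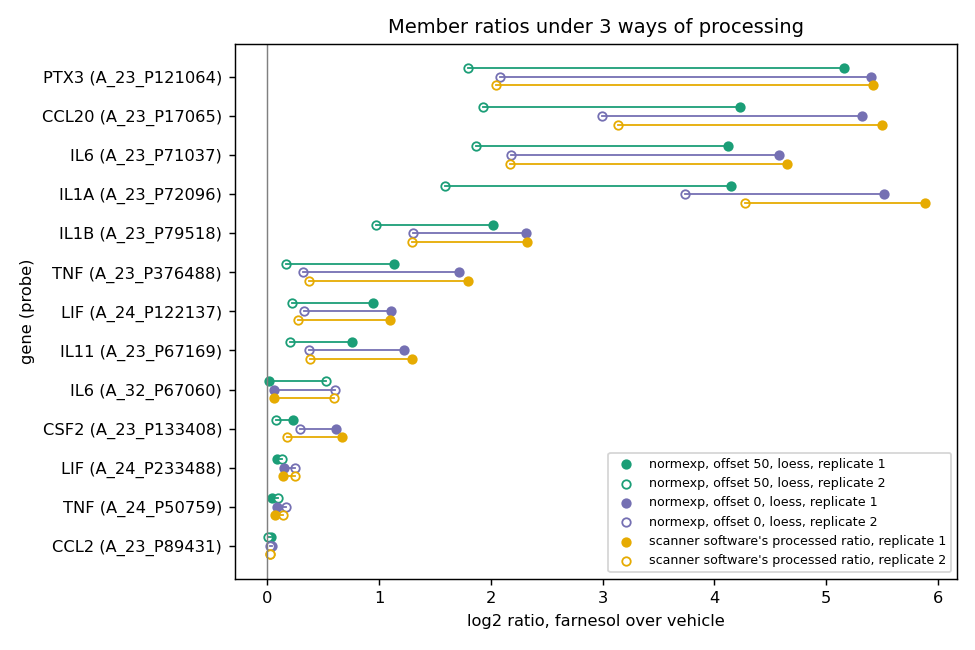
For each tested member probe the filled symbol is the log2 ratio of replicate 1 and the open symbol that of replicate 2, under background correction with an offset of 50 (green), with an offset of 0 (purple) and as the scanner software's processed ratio (yellow). IL1A moves most, from 1.59 to 4.28 in replicate 2, and CCL2 stays at 0.

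The authors' deposited table, a list of selected probes, is headed as replicate 1. It lists 7018 of the 41000 probes and 9 of the 14 member probes, which stand for 9 of the 10 members. In the authors' deposited table the ratio of farnesol over vehicle was 58.6 for IL1A, 42.7 for CCL20, 42.4 for PTX3 and 24.5 for the NM_000600 probe of IL6. IL1B stood at 4.93, the second TNF probe at 3.33, IL11 at 2.42, LIF at 2.14 and CSF2 at 1.59 in the authors' deposited table. CCL2, both BC027978 probes of IL6, the brighter TNF probe and the dimmer LIF probe were not listed there. These ratios have no replicate behind them, and the authors' ratio followed the scanner software's replicate 1 ratio at r = 0.9999 across probes, so they are not a separate measurement.

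None of the members' receptors met the 2-fold rule. All 13 listed receptors and decoy receptors were tested, and their median log2 ratio was 0.06. Limma called 0 of them in either direction (0 at an unadjusted p under 0.05 as well, against 14.5% of features). For the interleukin-1 receptors the mean log2 ratios were 0.00 for IL1R1, 0.12 for the accessory chain IL1RAP and 0.06 for the decoy IL1R2. For the gp130 family they were 0.13 for IL6R, 0.07 for IL6ST, which encodes gp130 itself, 0.09 for IL11RA and -0.15 for LIFR. The TNF receptors read -0.16 for TNFRSF1A and 0.03 for TNFRSF1B, the GM-CSF receptor chains -0.06 for CSF2RA and 0.06 for CSF2RB, and the chemokine receptors 0.08 for CCR2 and -0.01 for CCR6. The probes of TNFRSF1A disagreed in sign, at -0.16 and 0.24, and so did those of IL1RAP, which lay between -0.06 and 0.21. The vehicle channels summed to 2558 to 2740 over the 13 receptors. All 13 were well above background in all 4 vehicle channels and 10 in all 4 farnesol channels. The limit set by the offset on dim probes holds for these ratios and for the lists below.

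The remaining lists lay near 0 as well. The 22 adaptors, kinases and STATs downstream of these receptors had a median log2 ratio of 0.08 and lay between -0.37 (IRAK1) and 0.41 (RIPK1) by their brightest probes. The probes of TRAF1 disagreed in size, at 0.39 for the brightest and 1.12 for the other. The 11 genes of interleukin-1 and TNF processing and antagonism had a median of 0.06, between -0.23 (ADAM10) and 0.32 (ADAM17). ADAM17 had 0.69 in replicate 1 but -0.04 in replicate 2, and its other probe had a mean of 0.14. None of the genes in these lists was 2-fold different by its brightest probe, and limma called 0 of them. At an unadjusted p under 0.05 there were 1 of the first list and 0 of the second, against 14.5% of features.

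Among 32 other tested interleukins, gp130 cytokines and colony-stimulating factors, OSM, which encodes the gp130 cytokine oncostatin M, was the only one at least 2-fold higher. Its log2 ratio was 3.23 in replicate 1 and 1.34 in replicate 2, a mean of 2.28 ± 1.33 (SD, n = 2) with an adjusted p of 0.292. The list's median was 0.05. IL32, listed on the array as NK4, came next with 1.22 and 0.82, CCL5 led the 18 other CC chemokines with 0.54 and 0.94, and LTB led the 14 other TNF superfamily ligands with 1.70 and 0.15. IL32, CCL5 and LTB did not meet the 2-fold rule. The medians were 0.04 for the other CC chemokines, 0.06 for the other TNF superfamily ligands and 0.07 for the 14 other pentraxins and acute-phase proteins, of which the highest was TNFAIP6, at 0.77 and 0.09. Limma called 0 genes in each of these lists. The vehicle channels summed to 2667 to 2887 over the 14 TNF superfamily ligands and 2553 to 2783 over the 14 pentraxins and acute-phase proteins. The limit set by the offset on dim probes holds there too. Genes of the lists other than OSM and the receptors were named after their values were seen. At an unadjusted p under 0.05 there were 3 of 32 other cytokines, 1 of 18 other CC chemokines and 3 of 14 other TNF superfamily ligands. None of the 14 pentraxins and acute-phase proteins was among them, and the share over all features was 14.5%.

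**Figure D5:**
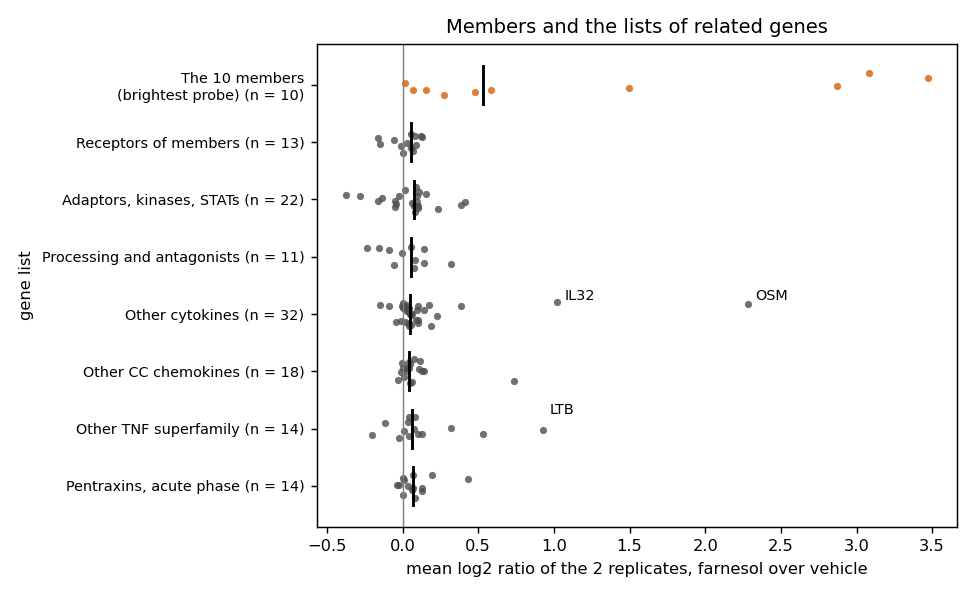
Each point is the mean log2 ratio (farnesol over vehicle, 2 replicates) of 1 gene, orange for the 10 members by their brightest probe and grey for the tested genes of 7 related lists, and the black bar is the list's median. The members spread from 0.02 to 3.47 with a median of 0.53, while the medians of the other lists lie between 0.04 and 0.08 and OSM stands alone at 2.28; the vertical scatter within a list has no meaning.

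Across the arrays 82.7% to 93.0% of probe spots in a channel were well above background, and 19 to 51 were saturated. Arrays of a dye-swapped pair correlated across features at r = 0.965 and 0.959, against 0.675 to 0.712 for arrays of different replicates; features are not independent. All 10 epithelial markers were well above background in every channel, with a summed intensity of 41903 to 43304 with vehicle and 30909 to 38524 with farnesol. Their median log2 ratio was -0.16, with 6 lower and 2 higher in both replicates, from -0.65 for KRT19, a keratin, to 0.95 for ELF3, an epithelial transcription factor. Limma called 0 of the epithelial markers, and 0 met the 2-fold rule. At an unadjusted p under 0.05 there were 3 of 10, against 14.5% of features. The 15 tested leukocyte markers summed to 6291 to 8342 with vehicle and 6711 to 11071 with farnesol. Their median log2 ratio was 0.08, and 0 met the 2-fold rule. All 15 were well above background in all 4 vehicle channels and 14 in all 4 farnesol channels. The 10 tested fibroblast and endothelial markers summed to 1172 to 1463 with vehicle and 1230 to 1574 with farnesol. All 10 were well above background in all 4 vehicle channels and 8 in all 4 farnesol channels. Being well above background thus did not set the epithelial markers apart with vehicle. The cultures were of a single established cell line, and a part of other cells in the cytokine values was not tested. As RNA came from whole cultures, more RNA per cell and more cells with the RNA cannot be told apart.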

How the data were processed

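The members and the lists of related genes were chosen with earlier results of these data known. Although the samples are labelled as mouse, H460 is human per the labels' protocols, as are the probes' gene names, and the data were treated so. Probe names date from the array's design, and neither probe sequences nor human gene positions were used here.

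Scans were quantified in Agilent Feature Extraction (8.1 per the labels, 8.1.1.1 per the file headers). Of the deposited columns, the intensity values were each spot's mean and its local background's median, uncorrected, per the file headers. The scanner software's processed intensity values, also deposited, had background and a spatial trend removed and the dyes balanced, and the deposited log10 ratio is of Cy5 over Cy3, per the file headers. Per the file headers, the authors' deposited table holds a linear ratio of farnesol over vehicle, a signed fold-change score and a p-value for each probe, with no program named; its 4 columns of vehicle and farnesol brightness, in both copies, were not used here. The labels write the farnesol RNA as 4H, and the authors' ratio, whose direction is stated per the file headers, has the sign used here. Both deposited copies of the authors' list held the same values and a heading for the first replicate.

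With limma 3.58.1 in R 4.3.3, normexp (offset 50) was used for background, and log2 ratios were normalized by loess within arrays, without control or outlying spots. Saturated spots were kept. Ratios of arrays with farnesol in Cy3 were turned, spots of a probe and then arrays of a pair were averaged (n = 2), and SDs are over those 2 replicates. Channel intensities were scaled between arrays by Aquantile. Tested probes were well above background in one and the same condition on at least 1 array of each replicate, and the brightest tested probe stood for a gene. Means were tested against 0 with limma's moderated statistic, two-sided, Benjamini-Hochberg adjusted over 28594 features, with 1 residual and 1.81 prior degrees of freedom; the code was tested on simulated data. Nothing in the labels says more than that the experiments were duplicate, so p-values measure the spread between these 2. Named were all members with every probe, list genes at least 2-fold different in both replicates with 1 sign on 4 arrays, the receptors of members, and the 2 genes nearest to each 2-fold higher member; other list genes were named after their values were seen.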

Additional observations from a re-analysis of the deposited data

How the results depend on the processing

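With 2 replicates and 1 residual degree of freedom the adjusted p-values are large for most genes. Over the alternatives, the number of members at least 2-fold different was 3 to 4, except with RefSeq mRNA probes together with an offset of 0 or with the scanner software's ratio, where it was 5. Leaving out a replicate gave 3 to 4. The members' median log2 ratio rose from 0.53 to 0.99 when a gene's probes were averaged, to 1.04 with RefSeq mRNA probes, to 1.30 with these and an offset of 0, and to 1.33 with these and the scanner software's ratio. The RefSeq alternatives and the fit of every probe were chosen after seeing the data. By construction they exchange the IL6 probe. Leaving out a replicate gave 0.37 to 0.85. Limma called 0 members except with the 4 arrays kept apart and the replicate as a random block (correlation 0.549). There it called 4: IL1A (adjusted p 0.0274), IL1B (0.0203), CCL20 (0.0186) and PTX3 (0.0372). That fit used the same correlation for all features and counted arrays of the same RNA as partly separate. Its p-values are therefore not those of 4 replicates, and it called 2894 of 28594 features. The features called in all were 3 in the main fit, 65 with an offset of 0, 60 with the scanner software's ratio and 25 with median centring. They were 15 and 5 with the farnesol-in-Cy3 and farnesol-in-Cy5 arrays alone, 2 with averaged probes and 2 without saturated spots. With RefSeq probes they were 73 with an offset of 0 and 61 with the scanner software's ratio. The 2-fold higher features were 188, and 283 and 294 with an offset of 0 and the scanner software's ratio, 500 without replicate 1 and 422 without replicate 2. The log2 ratio of CCL2 was -0.029 with median centring and -0.026 with the farnesol-in-Cy5 arrays alone. No other member changed sign. Over the alternatives that keep both replicates the log2 ratio of IL1A lay between 2.75 and 5.08, CCL20 between 2.84 and 4.32, PTX3 between 3.21 and 3.74, IL1B between 1.33 and 1.81 and IL6 between 0.05 and 3.41. With a replicate left out the ranges were 1.59 to 4.15 for IL1A, 1.93 to 4.23 for CCL20, 1.79 to 5.16 for PTX3, 0.97 to 2.02 for IL1B and 0.02 to 0.52 for IL6. Dim signals limit IL1A in the vehicle channel and CSF2 in both. The test of the ratios against 0 is itself a paired one. Each array already sets farnesol RNA against vehicle RNA of the same experiment, so the pairing is part of every ratio.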
